A study of Mus musculus with 20 samples.

Results

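Crypt cells sorted as Lgr5-high were compared with crypt cells sorted as Lgr5-low in Mettl3 knockout mice at the time labelled day 4. The comparison used 4 of the 20 libraries of the series, which were 2 of knockout Lgr5-high cells and 2 of knockout Lgr5-low cells. Of 54838 genes, 12080 were tested, namely those with 1 FPKM (fragments mapped to a gene, scaled to its exon length and to the library's total) or more in at least 2 of these 4 libraries. All 4 carry the labels Mettl3-/-, C57BL/6 and 4 days of tamoxifen, at 20 mg/ml by the protocol. The mice carried Mettl3fl/fl with Lgr5-EGFP-IRES-CreERT2 and Villin-CreERT2, so the recombinases were driven by the promoters of Lgr5, active in crypt base stem cells, and of Villin, active in all intestinal epithelium. Crypts were isolated, digested with TrypLE and sorted by flow cytometry, and total RNA was made into libraries with a NEBNext Ultra kit. Of the other tissue libraries, 2 were WT Lgr5-high and 2 WT Lgr5-low, labelled wild type, C57BL/6 and untreated. The protocol instead describes Mettl3fl/fl mice without Cre that also received tamoxifen, the labels do not settle which of these holds for WT, and no source used here says how Lgr5 was read in mice without the EGFP allele. A single knockout library per gate was labelled day 3, and 2 knockout libraries labelled day 6 name no gate and entered only the estimate of spread. The 8 organoid libraries were not used here, and neither ages nor the number of animals behind a library are given, so the p-values below measure the spread between libraries.

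Lgr5 encodes a receptor for R-spondins, secreted proteins that raise Wnt signalling, and marks the dividing stem cells at the base of intestinal crypts. Their daughters lose Lgr5, divide a few more times as transit-amplifying progenitors and become absorptive enterocytes or secretory goblet, enteroendocrine, tuft and Paneth cells. Mettl3 is the catalytic subunit of the complex that writes N6-methyladenosine (m6A) on messenger RNA, a mark read by proteins that govern splicing, translation and decay. A contrast of the gates is thus meant to set stem cells against progenitors and differentiated cells, but both gates also held RNA of other cell types. Paneth markers took 19.3% and 14.1% of all FPKM in knockout Lgr5-high cells and 17.2% and 17.5% in knockout Lgr5-low cells. In bulk RNA of sorted cells a smaller number of cells of a type and less RNA per cell cannot be told apart.

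The first knockout Lgr5-high library stood apart from the other libraries of the day 4 knockout and WT gates. Its log2 values correlated with those of the second knockout Lgr5-high library at r = 0.938 across the genes tested, against 0.963 for the knockout Lgr5-low pair, 0.981 for the WT Lgr5-high pair and 0.979 for the WT Lgr5-low pair. The second knockout Lgr5-high library was closer to the first knockout Lgr5-low library (0.966) than to its own partner. The first library held 20611 genes above 0, the fewest of the 12 tissue libraries, and its FPKM values summed to 607817, against 459286 to 534593 in the other 3 day 4 libraries. Its distance from the knockout Lgr5-low mean followed transcript length. Genes were put in 5 equal groups by exon length, and the median log2 difference over genes was taken in each. For the first Lgr5-high library it was 0.386 with the shortest exons (median 948 bases) and -0.486 with the longest (median 9160 bases). The second Lgr5-high library gave 0.184 and 0.190 in the same groups. Knockout library 1 of day 6, which is in the same fit, also ran low in long genes. Its mean deviation from the gene means was -0.108 in the shortest group and -0.398 in the longest, and its FPKM values summed to 763177. For the first Lgr5-high library these deviations were 0.221 and -0.441. Depth, estimated roughly from the step size of low values, was 14800000 to 23200000 fragments in the 4 day 4 knockout libraries.

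Stem cell and absorptive markers stood apart between the gates in the knockout. Bex1, a small signalling adaptor of the X chromosome (mm10 136213972 to 136215513), stood at 33.2 and 32.5 FPKM in knockout Lgr5-high cells, against 6.58 and 8.05 FPKM in knockout Lgr5-low cells. Ascl2, the Wnt-driven transcription factor of crypt stem cells (chromosome 7, 142966829 to 142969264), stood at 40.3 and 31.2 FPKM in knockout Lgr5-high cells, against 9.96 and 5.31 FPKM in knockout Lgr5-low cells. Igfbp4, a secreted protein that binds insulin-like growth factors (chromosome 11, 99041244 to 99054392), stood at 43.9 and 38.7 FPKM in knockout Lgr5-high cells, against 15.3 and 11.6 FPKM in knockout Lgr5-low cells. The gates did not overlap for any of the 3 genes. On the other side stood Mall, a membrane raft protein of the MAL family (chromosome 2, 127704386 to 127729932), at 9.79 and 13.4 FPKM in knockout Lgr5-high cells, against 40.7 and 59.2 FPKM in knockout Lgr5-low cells. Slc26a6, an apical exchanger of chloride, bicarbonate and oxalate (chromosome 9, 108853283 to 108913049), stood at 5.02 and 7.25 FPKM in knockout Lgr5-high cells, against 21.2 and 33.9 FPKM in knockout Lgr5-low cells. Lgr5 itself stood at 2.31 and 6.00 FPKM in knockout Lgr5-high cells, against 0.792 and 0.906 FPKM in knockout Lgr5-low cells. The sort used Lgr5, so its difference is a check on the labels and no result, but its level in the first knockout Lgr5-high library was the lowest of the 4 Lgr5-high libraries (10.1 and 10.4 FPKM in the WT ones). Mettl3 stood at 4.99 and 3.51 FPKM in knockout Lgr5-high cells and 3.67 and 2.75 FPKM in knockout Lgr5-low cells, against 4.86 and 4.58 FPKM in WT Lgr5-high cells and 4.23 and 3.42 FPKM in WT Lgr5-low cells. FPKM summed over the gene does not show whether part of it was deleted, and knockout here means a library labelled Mettl3-/-.

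**Figure D1:**
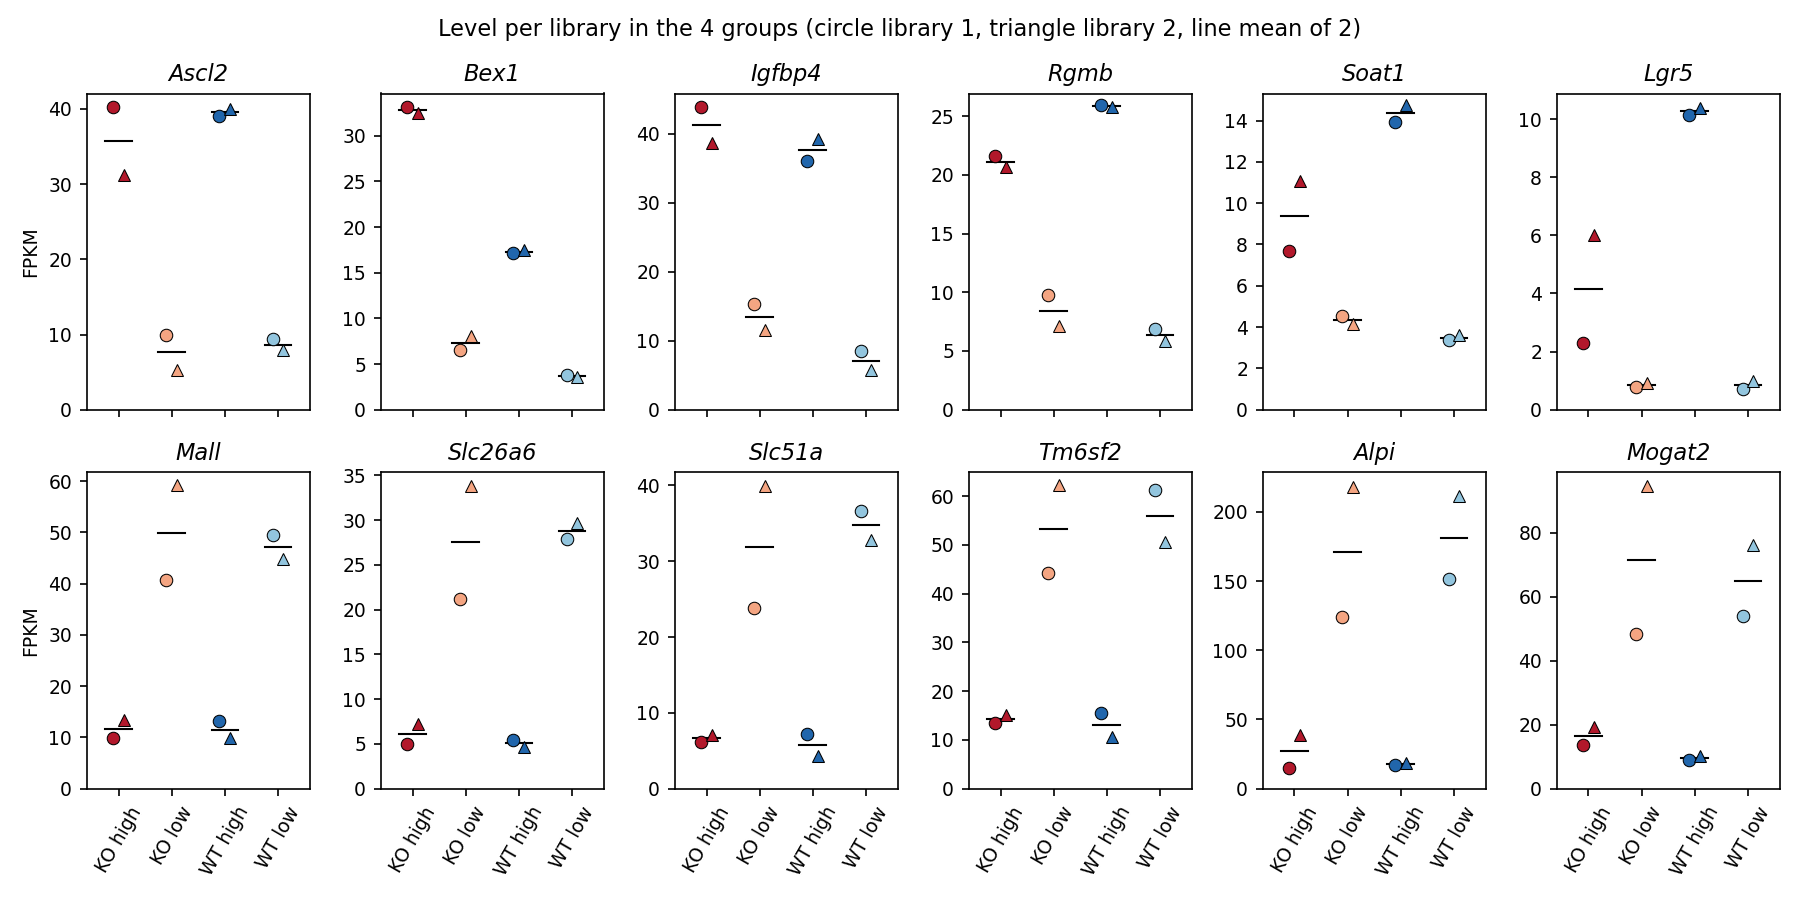
FPKM (y axis, linear, from 0, with its own range in each panel) of 6 genes higher in Lgr5-high and 6 absorptive genes in knockout Lgr5-high, knockout Lgr5-low, WT Lgr5-high and WT Lgr5-low libraries, with a circle for library 1, a triangle for library 2 and a line at their mean. The first 6 lie higher in Lgr5-high libraries and the absorptive genes higher in Lgr5-low libraries, with no overlap of the gates in knockout or in WT.

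Across all genes the gate difference in the knockout was broad but did not pass a test at a false discovery rate of 0.05. limma on log2(FPKM + 1) called 0 of 12080 genes (0%), and 2351 genes (19.5%) had an unadjusted p under 0.05, 1386 of them higher and 965 lower in Lgr5-high. Both knockout Lgr5-high libraries lay above both knockout Lgr5-low libraries for 3205 genes (26.5%) and below both for 2092 genes (17.3%). The smallest p belonged to Bex1, which was 2.03 ± 0.21 higher in Lgr5-high on the log2 scale (SE), with a limma adjusted p of 0.0598. In the same fit the WT gates gave 38 genes higher in Lgr5-high (0.315%) and 116 lower (0.96%), and the WT libraries did not overlap for 4902 genes higher (40.6%) and 2947 genes lower (24.4%). Every fold below is on the log2(FPKM + 1) scale, which understates the change of low genes.

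With the trend of each library against transcript length taken out, 109 genes passed in the knockout, 17 higher in Lgr5-high (0.141% of the genes with a length) and 92 lower (0.762%). limma adjusted p-values of the 17 lay between 0.0339 and 0.0480, and those of the 92 between 0.0339 and 0.0497. Without the correction the same genes had adjusted p-values of 0.0598 to 0.137 and 0.0736 to 0.158. The knockout gates did not overlap for any of the 109, so leaving out a library could hardly change a sign. All 109 had the same sign in every fit that left out a knockout library, but limma called 0 genes without the first Lgr5-high library and 1, which was not among the 109, without the second Lgr5-low library. It called 2190 without the second Lgr5-high library and 525 without the first Lgr5-low library, where the lone library of a gate was assumed to vary like the other groups. Below, "rose" and "fell" are used only of these 109 genes, and the size given is that after the correction.

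The 17 genes that rose in knockout Lgr5-high cells were Ascl2, Bex1, Btbd6, Cbs, Ccdc3, Cuedc2, Efna4, Fgfr4, Gm17322, Igfbp4, Lgr5, Noxa1, Rgmb, Slc14a1, Slco3a1, Soat1 and Stmn1. Lgr5 is the gene of the sort. With limma adjusted p-values in brackets, Ascl2 rose by 1.94 (0.0339), Bex1 by 1.79 (0.0339), Ccdc3 by 1.58 (0.0480), Igfbp4 by 1.54 (0.0408), Stmn1 by 1.48 (0.0480) and Slc14a1 by 1.46 (0.0480). Stmn1, the microtubule-destabilising protein stathmin, stood at 199 and 122 FPKM in knockout Lgr5-high cells, against 64.0 and 37.6 FPKM in knockout Lgr5-low cells. Slc14a1, a urea transporter, stood at 5.45 and 7.43 FPKM in knockout Lgr5-high cells, against 2.41 and 1.002 FPKM in knockout Lgr5-low cells. Noxa1, an activator of NADPH oxidases, stood at 36.2 and 29.2 FPKM in knockout Lgr5-high cells, against 14.8 and 9.98 FPKM in knockout Lgr5-low cells. For all 3 the gates did not overlap. The genes that fell included Srxn1, the sulfiredoxin that restores oxidised peroxiredoxins, by 2.79 (limma adjusted p = 0.0339), at 12.6 and 4.77 FPKM in knockout Lgr5-high cells, against 45.95 and 68.3 FPKM in knockout Lgr5-low cells. St3gal4, a sialyltransferase, fell by 2.36 (limma adjusted p = 0.0339), at 25.3 and 44.3 FPKM in knockout Lgr5-high cells, against 146 and 183 FPKM in knockout Lgr5-low cells. Cdkn2b, which encodes the cell cycle inhibitor p15, fell by 2.02 (limma adjusted p = 0.0391), at 8.13 and 11.996 FPKM in knockout Lgr5-high cells, against 30.8 and 44.7 FPKM in knockout Lgr5-low cells. Arg2, the mitochondrial arginase, fell by 2.38 (limma adjusted p = 0.0480), and Coro2a, an actin-binding coronin, fell by 1.63 (adjusted p = 0.0339). Reg3a, an antibacterial lectin, fell by 2.46 (limma adjusted p = 0.0480) and Muc3, a membrane mucin of the brush border, fell by 1.59 (adjusted p = 0.0339). Muc3 was nearly equal within a gate, at 36.5 and 37.6 FPKM in knockout Lgr5-high cells, against 96.8 and 105 FPKM in knockout Lgr5-low cells.

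**Figure D2:**
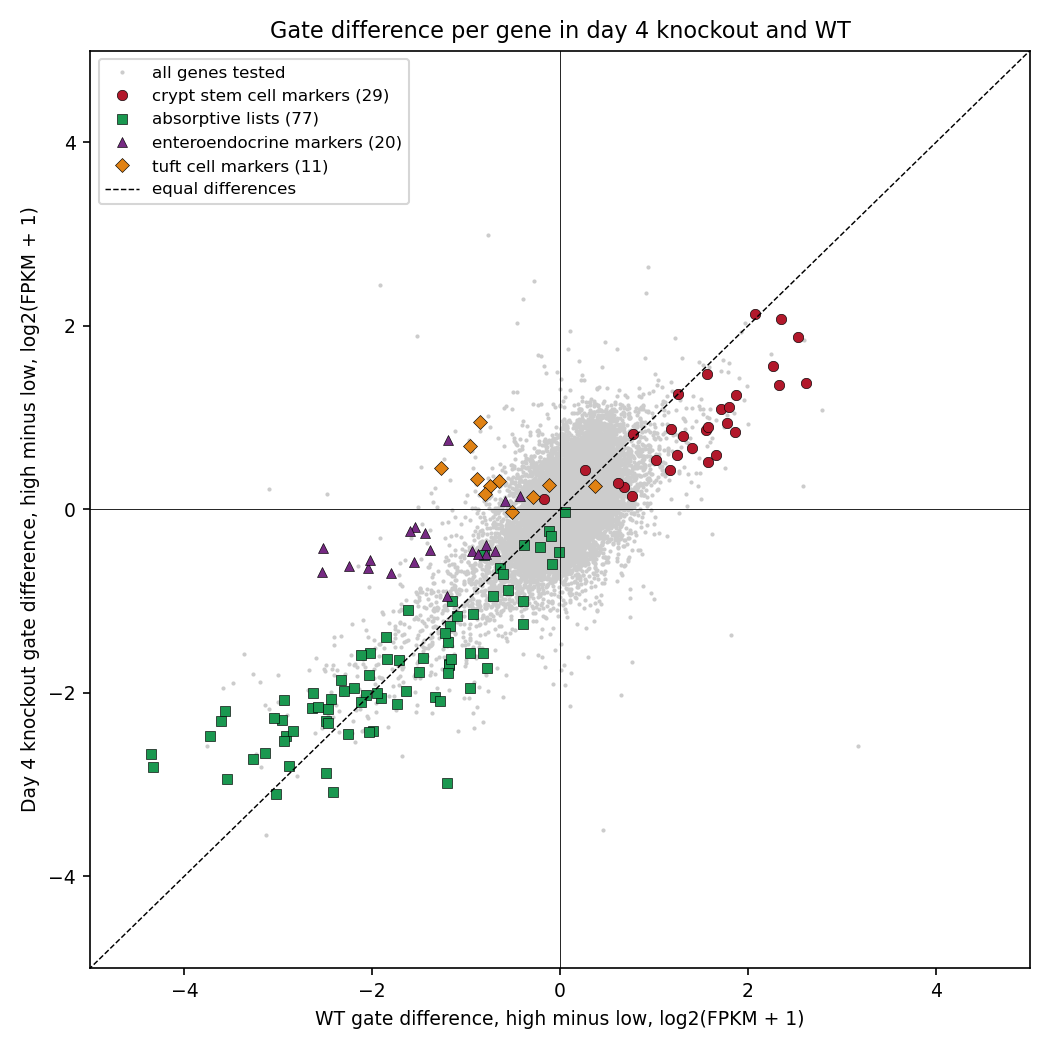
Gate difference, Lgr5-high minus Lgr5-low on the log2(FPKM + 1) scale, in day 4 knockout (y axis) and in WT (x axis), with a grey point per gene tested, coloured symbols for stem cell, absorptive, enteroendocrine and tuft lists, and a dashed line of equal differences. Absorptive genes lie on both sides of the dashed line, most stem cell markers lie under it on the positive side, and most enteroendocrine and tuft markers lie above it.

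Most stem cell markers stood apart between the knockout gates, with smaller differences than in WT. The 29 tested markers came from a list chosen with earlier results of these data known, which includes Lgr5, the gene of the sort. Of the 29, 20 had both knockout Lgr5-high libraries above both Lgr5-low libraries and none lay the other way, beside 26.5% and 17.3% of all genes. In WT 28 of 29 did so, beside 40.6%. Ascl2, Igfbp4, Lgr5, Rgmb and Soat1 rose once the length trend was out. The median difference was 0.87 in knockout, 0.92 in knockout with the length trend out and 1.56 in WT. Over all genes these medians were 0.04, 0.01 and 0.10. WT list medians here and below are without the length correction, so their like is the uncorrected knockout median. The difference was smaller in knockout, with the same sign, for 24 of 29 markers, beside 3574 of 12080 genes. Olfm4, a secreted glycoprotein and abundant stem cell marker, stood at 1386 and 1845 FPKM in knockout Lgr5-high cells and 562 and 337 FPKM in knockout Lgr5-low cells. In WT it stood at 2857 and 3060 FPKM in Lgr5-high cells and 538 and 484 FPKM in Lgr5-low cells. The gates did not overlap in either genotype, and both knockout Lgr5-high libraries lay below both WT ones. Its gate difference was 1.88 ± 0.62 in knockout (SE, limma adjusted p = 0.168) and 2.53 in WT (limma adjusted p = 0.0978).

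Igfbp4 and Soat1 had smaller gate differences in knockout than in WT, on different sides of the gate. For Igfbp4 the Lgr5-high levels of the genotypes overlapped (36.0 and 39.3 FPKM in WT), and the Lgr5-low level was 15.3 and 11.6 FPKM in knockout, against 8.53 and 5.73 FPKM in WT. For Soat1, which esterifies cholesterol, the Lgr5-low level was 4.53 and 4.16 FPKM in knockout and 3.38 and 3.59 FPKM in WT, and the Lgr5-high level was 7.71 and 11.1 FPKM in knockout, against 14.0 and 14.7 FPKM in WT. The knockout gate difference minus the WT one was -0.71 for Igfbp4 and -0.83 for Soat1. The limma adjusted p was 0.957 for both, so neither passed. Rgmb, a BMP co-receptor, stood at 21.6 and 20.6 FPKM in knockout Lgr5-high cells and 9.73 and 7.10 FPKM in knockout Lgr5-low cells, against 25.9 and 25.8 FPKM in WT Lgr5-high cells and 6.89 and 5.84 FPKM in WT Lgr5-low cells. Ascl2 differed by 2.13 ± 0.32 in knockout before the correction and by 2.07 in WT, and Bex1 by 2.03 and 1.97. Bex1 stood higher in both knockout gates than in the matching WT gates (17.1 and 17.5 FPKM in WT Lgr5-high, 3.84 and 3.53 FPKM in WT Lgr5-low). Smoc2, a matricellular stem cell marker, differed by 1.25 in both genotypes.

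Listed Wnt targets, among them 8 that are also on the stem cell list, likewise stood higher in knockout Lgr5-high cells by less than in WT. Of 20 tested, 11 had non-overlapping knockout gates with Lgr5-high above and none the other way, beside 26.5% and 17.3% of all genes, and in WT these counts were 17 and 1, beside 40.6% and 24.4%. The median difference was 0.61 in knockout, 0.74 with the length trend out and 1.14 in WT, and the knockout value was 0.34 without the second Lgr5-high library. Sp5, a transcription factor that Wnt induces, stood at 20.3 and 12.01 FPKM in knockout Lgr5-high cells, against 6.81 and 3.39 FPKM in knockout Lgr5-low cells, and Tcf7, a partner of beta-catenin, at 8.64 and 9.38 FPKM, against 5.24 and 3.08 FPKM. Axin2, the feedback inhibitor of the pathway, stood at 35.3 and 50.8 FPKM in knockout Lgr5-high cells and 25.2 and 14.8 FPKM in knockout Lgr5-low cells. In WT Axin2 stood at 77.9 and 77.2 FPKM in Lgr5-high cells and 24.6 and 21.4 FPKM in Lgr5-low cells. Tnfrsf19, a Wnt-induced receptor, stood at 4.48 and 7.51 FPKM in knockout Lgr5-high cells and 2.19 and 1.24 FPKM in knockout Lgr5-low cells, while WT Lgr5-low cells held 0.591 and 0.550 FPKM. Sox9 and Sox4 overlapped between the knockout gates. Sox4, a progenitor transcription factor, stood at 16.8 and 37.6 FPKM in knockout Lgr5-high cells and 20.4 and 15.3 FPKM in knockout Lgr5-low cells, against 41.5 and 37.9 FPKM in WT Lgr5-high cells and 13.6 and 11.7 FPKM in WT Lgr5-low cells. The first knockout Lgr5-high library lay above both Lgr5-low libraries for 11 of the 20 Wnt targets and the second for 19, and for the stem cell list these counts were 21 and 28. Over all 12080 genes tested these counts were 4598 and 6486. Myc, the growth regulator downstream of Wnt, stood at 37.0 and 25.2 FPKM in knockout Lgr5-high cells, against 16.6 and 12.6 FPKM in knockout Lgr5-low cells. In WT Myc stood at 31.2 and 23.5 FPKM in Lgr5-high cells, against 16.3 and 8.92 FPKM in Lgr5-low cells.

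Eph receptors and ephrins, which by mutual repulsion keep cells in place along the crypt axis, lay on both sides of the gate difference. Efna4, an ephrin A ligand, rose by 1.19 (limma adjusted p = 0.0416), at 24.999 and 20.1 FPKM in knockout Lgr5-high cells, against 9.32 and 6.72 FPKM in knockout Lgr5-low cells. Efnb2, an ephrin B ligand, stood at 1.52 and 5.59 FPKM in knockout Lgr5-high cells, against 8.22 and 12.1 FPKM in knockout Lgr5-low cells, and Efnb1 at 15.3 and 24.1 FPKM, against 34.9 and 30.8 FPKM. Of the 9 tested members, 2 stood apart with Lgr5-high above (Efna4 and Ephb3) and 4 with Lgr5-low above (Efnb1, Efnb2, Epha1 and Epha2), beside 26.5% and 17.3% of all genes. Ephb2, a receptor of the crypt base, overlapped between the knockout gates at 7.65 and 14.5 FPKM in Lgr5-high cells and 10.5 and 7.87 FPKM in Lgr5-low cells. The median of this list was 0.01 in knockout, -0.17 with the length trend out and 0.29 in WT, and its sign changed in 12 of 25 other settings. Among 11 tested Notch pathway genes, 2 stood apart, both with Lgr5-high above, a share below the 26.5% of all genes. These were Lfng, a glycosyltransferase that modifies Notch (8.52 and 10.9 FPKM in knockout Lgr5-high, 4.81 and 5.40 FPKM in knockout Lgr5-low), and Hes1, a repressor that Notch induces (48.4 and 25.3 FPKM, against 23.4 and 9.94 FPKM). The Notch list had a median of 0.23 in knockout and 0.29 in WT. Without the second Lgr5-high library its knockout median was -0.16 and without the second Lgr5-low library -0.04.

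Cell cycle and ribosome biogenesis genes had positive median differences in knockout as in WT, and limma called 0 of them. At an unadjusted limma p under 0.05, 17 cell cycle and 13 ribosome biogenesis genes were higher in Lgr5-high, beside 1386 of 12080 genes. Of 36 cell cycle genes, 22 had non-overlapping knockout gates with Lgr5-high above and none the other way, beside 26.5% of all genes, and in WT 29 did, beside 40.6%. The median difference was 0.58 in knockout and 0.38 in WT, and the knockout value was 0.27 without the second Lgr5-low library and 0.89 without the first. Among the smallest p-values of the list were genes of DNA replication. Mcm7, a subunit of the replicative helicase, stood at 53.1 and 42.9 FPKM in knockout Lgr5-high cells, against 29.5 and 15.9 FPKM in knockout Lgr5-low cells, and E2f1, which drives S phase genes, at 10.003 and 8.78 FPKM, against 5.68 and 3.55 FPKM. Mki67, a marker of cycling cells, overlapped at 31.6 and 45.4 FPKM in knockout Lgr5-high cells and 39.3 and 22.4 FPKM in knockout Lgr5-low cells, with a difference of 0.34 ± 0.34 (SE). Of 24 genes of ribosome biogenesis, 18 had non-overlapping knockout gates with Lgr5-high above and none the other way, beside 26.5% of all genes, and in WT 21 did, beside 40.6%. The median difference was 0.62 in knockout and 0.58 in WT, and the knockout value was 0.34 without the second Lgr5-low library and 0.96 without the first. Nop56, of the ribosomal RNA methylation machinery, stood at 59.5 and 39.1 FPKM in knockout Lgr5-high cells, against 31.3 and 19.3 FPKM in knockout Lgr5-low cells. Within a gate the library numbered 1 was the higher for Nop56, as for Mcm7. Replication-dependent histone genes, whose messages lack a poly(A) tail, were measured for 8 of 20 listed members, with a median of 0.61 in knockout, 0.31 with the length trend out and -0.11 in WT. Some passed the filter only through Lgr5-high libraries, such as Hist2h2ac at 1.34 and 1.19 FPKM, against 0.288 and 0.220 FPKM in knockout Lgr5-low cells. With a filter at 5 FPKM the knockout median was -0.24, so its direction is not read as a result.

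Genes of absorptive enterocytes stood lower in knockout Lgr5-high than in knockout Lgr5-low cells, with medians close to those of WT. All 18 brush border hydrolases and all 22 solute carriers had both knockout Lgr5-high libraries below both Lgr5-low libraries, as did 20 of 21 fat absorption genes and 13 of 16 structural proteins of the brush border, beside 17.3% of all genes. The median differences in knockout and WT were -2.39 and -2.49 for hydrolases, -1.96 and -2.07 for carriers, -2.001 and -1.99 for fat absorption, and -0.99 and -0.81 for brush border structure. With the length trend out the knockout medians were -2.50, -2.01, -2.15 and -1.08 in the same order. Without the first Lgr5-high library the knockout medians were -1.69 for hydrolases, -1.42 for carriers, -1.63 for fat absorption and -0.63 for structure. For each of the 4 lists the mean log2 level in both genotypes was lowest in Lgr5-high libraries, and the second library of either knockout gate stood above the first. For hydrolases the mean log2 level was 2.30 and 3.85 in knockout Lgr5-high cells and 4.69 and 6.06 in knockout Lgr5-low cells, against 2.83 and 2.88 in WT Lgr5-high cells and 4.82 and 5.40 in WT Lgr5-low cells.

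Among genes of fat uptake and export, Tm6sf2, which helps to load lipid into lipoproteins, fell by 1.98 (limma adjusted p = 0.0339), at 13.5 and 15.2 FPKM in knockout Lgr5-high cells, against 44.3 and 62.3 FPKM in knockout Lgr5-low cells. Mogat2, which rebuilds triglyceride from monoacylglycerol, fell by 2.18 (limma adjusted p = 0.0480), at 13.5 and 19.2 FPKM in knockout Lgr5-high cells, against 48.2 and 94.5 FPKM in knockout Lgr5-low cells. Abcg5, a subunit of the transporter that returns plant sterols to the lumen, fell by 1.80 (limma adjusted p = 0.0480), at 8.45 and 13.5 FPKM in knockout Lgr5-high cells, against 28.6 and 46.7 FPKM in knockout Lgr5-low cells. Apoa1, the main apolipoprotein of high density lipoproteins, stood at 79.6 and 177 FPKM in knockout Lgr5-high cells and 413 and 1395 FPKM in knockout Lgr5-low cells, against 19.9 and 21.7 FPKM in WT Lgr5-high cells and 351 and 559.6 FPKM in WT Lgr5-low cells. Its gate difference was -2.67 ± 0.57 in knockout (SE, limma adjusted p = 0.101) and -4.35 in WT (adjusted p = 0.0169), and the difference between these had an adjusted p of 0.957. Fabp2, the intestinal fatty acid binding protein, varied more between knockout libraries, at 143 and 255 FPKM in Lgr5-high cells and 366 and 1668 FPKM in Lgr5-low cells.

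Among hydrolases, Alpi, the intestinal alkaline phosphatase, fell by 2.86 (limma adjusted p = 0.0480), at 14.7 and 39.1 FPKM in knockout Lgr5-high cells, against 124 and 218 FPKM in knockout Lgr5-low cells. Anpep, the aminopeptidase N of the brush border, stood at 43.9 and 93.1 FPKM in knockout Lgr5-high cells, against 215 and 481 FPKM in knockout Lgr5-low cells, and Treh, the trehalase, at 2.26 and 7.27 FPKM, against 15.0 and 39.4 FPKM. Sis, the sucrase-isomaltase, stood at 4.59 and 39.2 FPKM in knockout Lgr5-high cells and 76.5 and 213 FPKM in knockout Lgr5-low cells. Of the brush border structure, Mall fell by 2.17 (limma adjusted p = 0.0339). Myo1a, the myosin that ties the actin core of a microvillus to its membrane, stood at 52.6 and 77.1 FPKM in knockout Lgr5-high cells, against 124 and 194 FPKM in knockout Lgr5-low cells.

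Among carriers, 5 fell in knockout Lgr5-high cells. Slc26a6 fell by 1.96 and Slc51a fell by 2.15 (limma adjusted p = 0.0339 each). Slc7a9 fell by 2.06 (limma adjusted p = 0.0480), Slc26a3 fell by 1.71 (adjusted p = 0.0423) and Slc9a3 fell by 2.30 (adjusted p = 0.0483). Slc51a, a subunit of the basolateral bile acid exporter, stood at 6.18 and 7.07 FPKM in knockout Lgr5-high cells, against 23.8 and 39.9 FPKM in knockout Lgr5-low cells. Slc7a9, the light chain of the cystine carrier, stood at 2.38 and 5.11 FPKM in knockout Lgr5-high cells, against 11.9 and 22.9 FPKM in knockout Lgr5-low cells. Slc9a3, the apical sodium-proton exchanger, stood at 1.06 and 2.56 FPKM in knockout Lgr5-high cells, against 11.04 and 14.5 FPKM in knockout Lgr5-low cells. The apical sugar and peptide carriers had the same direction with more spread between libraries. Slc5a1, the sodium-glucose cotransporter, stood at 33.1 and 66.2 FPKM in knockout Lgr5-high cells, against 109 and 247 FPKM in knockout Lgr5-low cells, and Slc15a1, the peptide carrier, at 0.570 and 4.08 FPKM, against 5.65 and 23.4 FPKM. Nr1h4, the bile acid receptor, fell by 1.48 (limma adjusted p = 0.0480), at 6.44 and 7.10 FPKM in knockout Lgr5-high cells, against 19.1 and 18.2 FPKM in knockout Lgr5-low cells. Maf, a transcription factor of villus enterocytes, fell by 2.14 (limma adjusted p = 0.0480), at 0.739 and 2.55 FPKM in knockout Lgr5-high cells, against 7.95 and 14.7 FPKM in knockout Lgr5-low cells. Among 19 villus transcription factors and genes of the BMP response, 12 stood apart with Lgr5-high below and 1 with Lgr5-high above (Cdx2), beside 17.3% and 26.5% of all genes, and the median was -0.55 in knockout and -0.36 in WT. Hnf4g, a nuclear receptor of enterocytes, stood at 3.41 and 22.0 FPKM in knockout Lgr5-high cells, against 46.5 and 59.99 FPKM in knockout Lgr5-low cells.

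**Figure D3:**
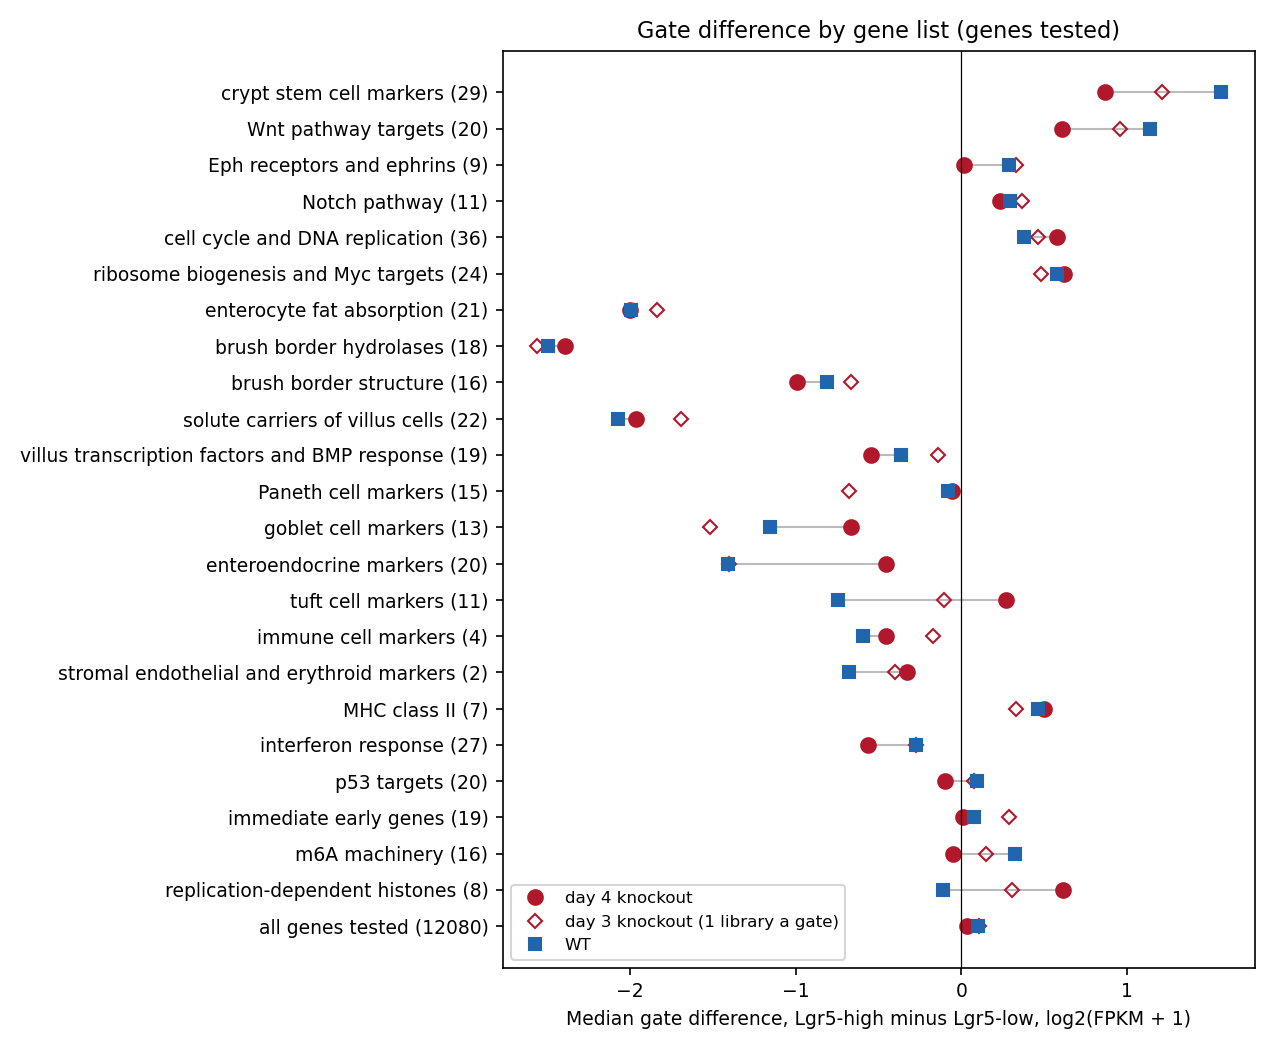
Median gate difference of the tested genes of each list, Lgr5-high minus Lgr5-low on the log2(FPKM + 1) scale (x axis), in day 4 knockout (circles), in the single day 3 knockout libraries (diamonds) and in WT (squares), with a grey line between day 4 knockout and WT and the number of genes in brackets. The 4 absorptive lists lie close together in day 4 knockout and WT, and the stem cell, Wnt, enteroendocrine and tuft lists lie apart.

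Promoter sequence is shown for 6 picked genes, because the intestinal regulators Hnf4 and Cdx bind known letter patterns. A link of these patterns to the gate differences was not tested. Each sequence runs from 250 to 51 bases before the RefSeq start of the gene (200 bases, GRCm38.p6, from RefSeq) in the gene's own direction, with matches to the searched patterns in capitals on either strand. The patterns were CTTTGAT (TCF/LEF), CAGCTG (an E-box of the kind Ascl2 binds), AAAGTCC (an Hnf4-type site) and TTTATNG (a Cdx-type site), none of which overlaps another in these windows. Ascl2 at chr7:142969315-142969514 (minus strand) and Igfbp4 at chr11:99040994-99041193 (plus strand) are examples of the genes that rose. Treh at chr9:44672983-44673182 (plus strand), Slc51a at chr16:32487930-32488129 (minus strand), Fabp2 at chr3:122894822-122895021 (plus strand) and Abcg5 at chr17:84683062-84683261 (minus strand) were picked from the absorptive lists. Each of them holds a match, which most absorptive promoters do not, as the shares below show. Slc51a and Abcg5 are among the genes that fell, and Treh and Fabp2 are not.
Ascl2: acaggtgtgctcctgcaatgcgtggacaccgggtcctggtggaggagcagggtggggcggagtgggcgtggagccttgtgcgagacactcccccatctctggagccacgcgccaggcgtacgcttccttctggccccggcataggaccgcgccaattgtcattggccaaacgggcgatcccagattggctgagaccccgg
Igfbp4: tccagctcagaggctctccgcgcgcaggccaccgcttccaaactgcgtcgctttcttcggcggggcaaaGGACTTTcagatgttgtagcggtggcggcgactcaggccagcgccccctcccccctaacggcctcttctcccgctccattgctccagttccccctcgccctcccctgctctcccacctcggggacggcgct
Treh: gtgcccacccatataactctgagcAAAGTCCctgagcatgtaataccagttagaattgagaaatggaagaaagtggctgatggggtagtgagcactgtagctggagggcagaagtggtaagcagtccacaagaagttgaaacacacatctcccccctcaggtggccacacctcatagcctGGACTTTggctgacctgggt
Slc51a: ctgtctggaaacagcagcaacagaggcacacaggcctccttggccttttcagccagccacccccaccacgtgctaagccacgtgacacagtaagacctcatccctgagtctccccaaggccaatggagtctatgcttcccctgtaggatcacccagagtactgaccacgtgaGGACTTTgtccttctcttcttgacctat
Fabp2: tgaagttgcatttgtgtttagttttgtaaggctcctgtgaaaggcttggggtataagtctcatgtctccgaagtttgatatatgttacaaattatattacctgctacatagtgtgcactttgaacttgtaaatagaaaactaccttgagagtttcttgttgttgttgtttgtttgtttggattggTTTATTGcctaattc
Abcg5: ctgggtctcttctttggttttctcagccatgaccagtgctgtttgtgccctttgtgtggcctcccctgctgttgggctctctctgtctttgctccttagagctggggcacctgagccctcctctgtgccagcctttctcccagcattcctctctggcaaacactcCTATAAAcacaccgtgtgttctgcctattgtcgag
AAAGTCC occurred in Treh on both strands, in Slc51a and in Igfbp4, TTTATNG in Fabp2 and Abcg5, and no pattern in Ascl2. Of the 77 tested genes on the absorptive lists, 63 had a promoter in the table, of which 6 (9.52%) held AAAGTCC and 9 (14.3%) held TTTATNG. Of all 27025 genes with a promoter of this length, 2.89% held AAAGTCC and 7.86% TTTATNG, and of the 8632 tested genes with a promoter 2.88% and 4.78% did. Among the 92 genes that fell, 76 had a promoter, and 3.95% and 6.58% of these held the patterns. CTTTGAT was in 1.59% and CAGCTG in 6.35% of the absorptive promoters, against 2.64% and 10.1% of all promoters. Too few of the 17 genes that rose (12) and of the 29 stem cell markers (19) had a promoter for a share to be given. These are matches of letters within short windows and say nothing of binding.

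Median gate differences of the secretory lists moved with single knockout libraries, and their values without a library are given beside them. Among 13 goblet markers, 8 had both knockout Lgr5-high libraries below both Lgr5-low libraries and none the other way, beside 17.3% of all genes, and in WT 10 did, beside 24.4%. The goblet median was -0.67 in knockout and -1.16 in WT. Without the first Lgr5-high or the second Lgr5-low library the knockout median was -0.39 and -0.40, and without the second Lgr5-high or the first Lgr5-low library it was -1.21 and -1.20. Zg16, a lectin of goblet granules, stood at 286 and 558 FPKM in knockout Lgr5-high cells and 852 and 1688 FPKM in knockout Lgr5-low cells, against 90.1 and 68.4 FPKM in WT Lgr5-high cells and 868 and 767 FPKM in WT Lgr5-low cells. The gates did not overlap in either genotype, and the knockout Lgr5-high libraries lay above the WT ones. Its difference was -1.58 ± 0.45 in knockout (SE, limma adjusted p = 0.141) and -3.36 in WT (adjusted p = 0.0169). Muc2, the secreted gel mucin, stood at 63.4 and 187 FPKM in knockout Lgr5-high cells, against 200.4 and 305 FPKM in knockout Lgr5-low cells. Tff3, the trefoil peptide, stood at 2176 and 2051 FPKM in knockout Lgr5-high cells and 2616 and 3679.7 FPKM in knockout Lgr5-low cells, against 752 and 511 FPKM in WT Lgr5-high cells and 2240.3 and 1688 FPKM in WT Lgr5-low cells.

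Enteroendocrine genes, which encode gut hormones and the proteins of their granules, had a median difference of -0.45 in knockout and -1.41 in WT over 20 tested members. Only 2 of these, Sst and Chga, stood apart between the knockout gates, beside 17.3% of all genes, whereas 17 did in WT with Lgr5-high below, beside 24.4%. The difference was smaller in knockout, with the same sign, for 17 of the 20, beside 3574 of 12080 genes. Sst, which encodes somatostatin, stood at 119 and 138 FPKM in knockout Lgr5-high cells and 147 and 266 FPKM in knockout Lgr5-low cells, against 21.7 and 9.70 FPKM in WT Lgr5-high cells and 96.7 and 55.4 FPKM in WT Lgr5-low cells. Chga, the granule protein chromogranin A, stood at 106 and 190.4 FPKM in knockout Lgr5-high cells and 192 and 256 FPKM in knockout Lgr5-low cells, against 25.5 and 10.7 FPKM in WT Lgr5-high cells and 84.7 and 61.2 FPKM in WT Lgr5-low cells. Both were higher in each knockout library than in any WT library. As a ratio, though not in FPKM, the Lgr5-high level differed more between the genotypes than the Lgr5-low level. The difference between knockout and WT gate differences had an unadjusted limma p of 0.0221 for Sst and 0.0492 for Chga, beside 1.61% of all genes, and an adjusted p of 0.957 for both. The knockout median of the list was 0.16 without the first Lgr5-high library, -1.06 without the second, -0.83 without the first Lgr5-low library and -0.10 without the second.

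Tuft cell markers had a median of 0.27 in knockout, 0.18 with the length trend out and -0.74 in WT over 11 tested members. Of these, 9 had opposite signs in the genotypes, beside 3654 of 12080 genes. Ltc4s, which makes the lipid mediator leukotriene C4, was the single member apart between the knockout gates, at 6.93 and 7.05 FPKM in Lgr5-high cells and 2.21 and 4.28 FPKM in Lgr5-low cells, against 1.72 and 1.40 FPKM in WT Lgr5-high cells and 4.35 and 2.99 FPKM in WT Lgr5-low cells. The second knockout Lgr5-high library lay above both Lgr5-low libraries for all 11 tuft markers and the first for 1, beside 6486 and 4598 of 12080 genes. The tuft median was 1.02 without the first Lgr5-high library and -0.34 without the second. It was -0.16 without the first Lgr5-low library and 0.78 without the second. Among 15 Paneth markers none stood apart between the knockout gates, and the median was -0.05 in knockout, -0.36 with the length trend out and -0.08 in WT. Without the first Lgr5-high library the Paneth median was -0.50 and without the second 0.36, and without the first Lgr5-low library it was -0.19 and without the second 0.034. The first Lgr5-high library lay above both Lgr5-low libraries for 12 of these 15 and the second below both for 13, beside 4598 and 2776 of 12080 genes. Lyz1, the Paneth cell lysozyme, stood at 8171 and 7311 FPKM in knockout Lgr5-high cells and 7475 and 11158 FPKM in knockout Lgr5-low cells. Paneth markers took 19.3% and 14.1% of all FPKM in knockout Lgr5-high cells and 17.2% and 17.5% in knockout Lgr5-low cells, against 15.2% and 11.7% in WT Lgr5-high cells and 12.02% and 13.9% in WT Lgr5-low cells. The alpha-defensins among them are near-identical copies, so the split of fragments between members is uncertain.

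**Figure D4:**
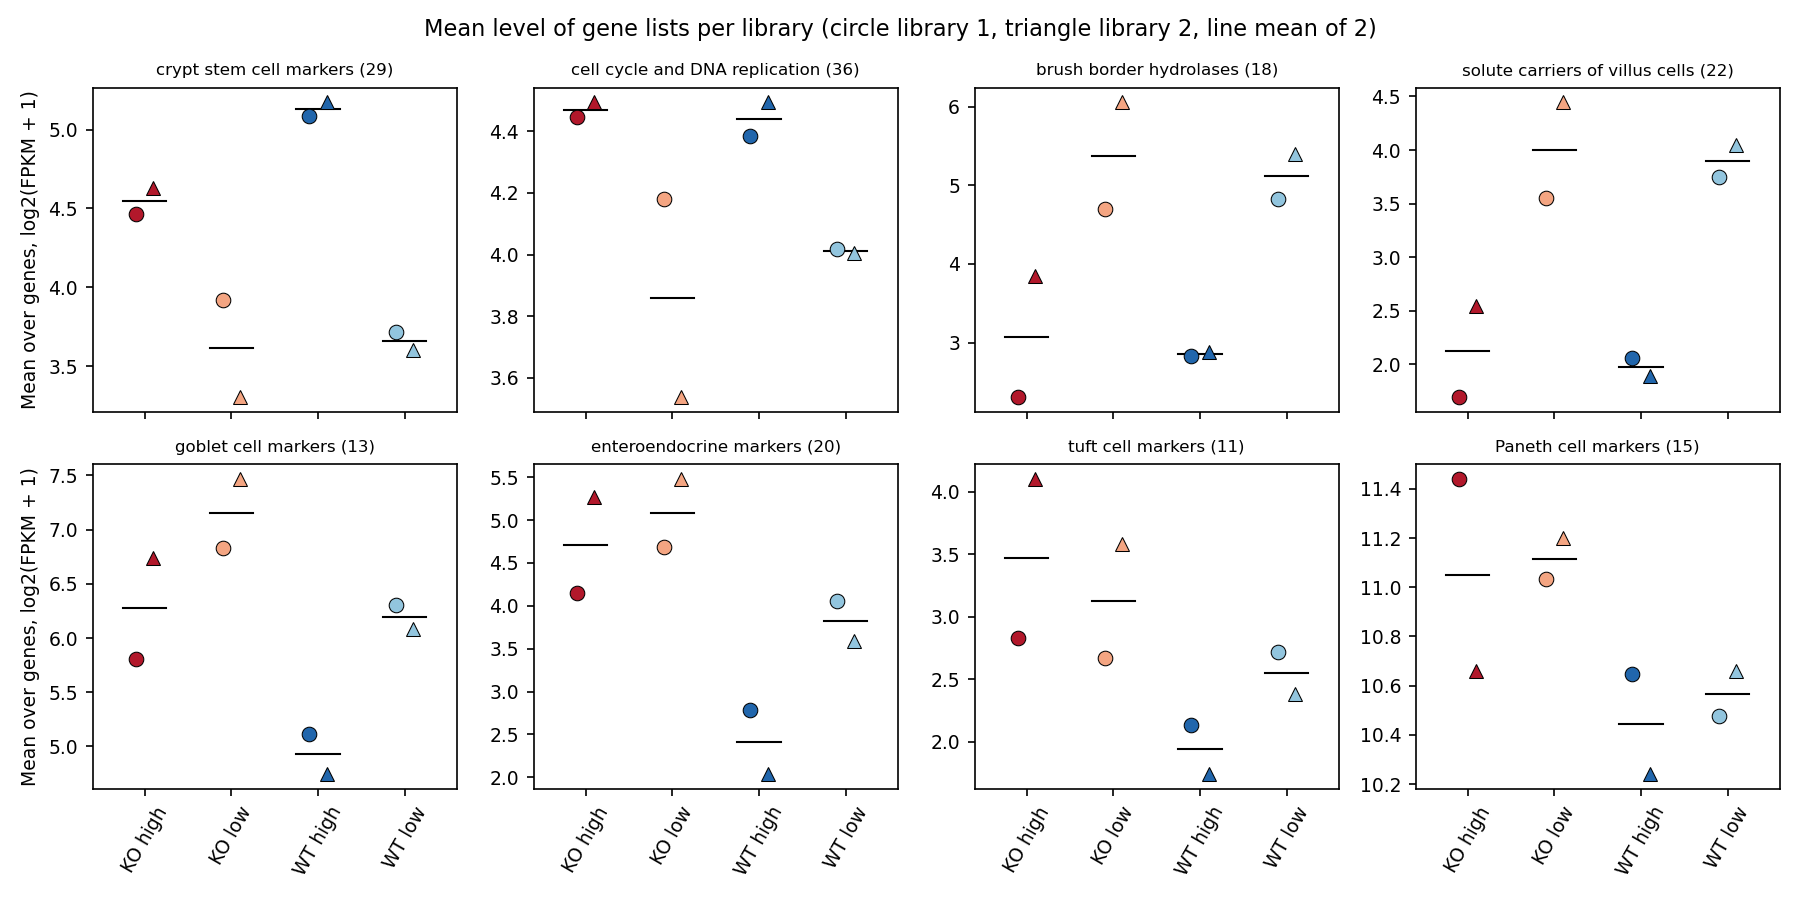
Mean log2(FPKM + 1) over the genes of 8 lists (y axis, with its own range in each panel, not from 0) in knockout Lgr5-high, knockout Lgr5-low, WT Lgr5-high and WT Lgr5-low libraries, with a circle for library 1, a triangle for library 2 and a line at their mean. Enteroendocrine and tuft genes are higher in library 2 of both knockout gates (4.15 and 5.26 for enteroendocrine genes in knockout Lgr5-high, 4.69 and 5.48 in knockout Lgr5-low).

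Several of these lists differed more by library number than by gate. Both knockout libraries numbered 2 lay above both numbered 1 for 17 of 20 enteroendocrine and 10 of 11 tuft markers. Over all genes this share was 18.7%. The same held for 5 of 7 genes of MHC class II and 14 of 27 interferon response genes. It held for 5 of 13 goblet markers too, but 8 of these 13 stood apart by gate. Both libraries numbered 1 lay above both numbered 2 for 13 of 19 immediate early genes, beside 10.5% of all genes. For Paneth markers this held for 5 of 15. Pla2g2a, a secreted phospholipase that was put on the stem cell list and is also made by Paneth cells, was the extreme case. It stood at 4723 and 87.9 FPKM in knockout Lgr5-high cells and 3346 and 107 FPKM in knockout Lgr5-low cells, against 2478 and 1482 FPKM in WT Lgr5-high cells and 2349 and 1968 FPKM in WT Lgr5-low cells. Both knockout libraries numbered 1 were far above both numbered 2. What the numbers stand for is not given in the labels, and its part in the gate differences was not tested.

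Of the remaining lists, interferon response genes had a median of -0.56 in knockout and -0.27 in WT, where the knockout value was -0.21 without the first Lgr5-high library and also without the second Lgr5-low library. Of this list 9 of 27 stood apart between the knockout gates with Lgr5-high below, beside 17.3% of all genes. In WT 18 of 27 did, beside 24.4%, and 2 lay the other way. Ifit1, an interferon-induced RNA-binding protein, stood at 3.04 and 4.99 FPKM in knockout Lgr5-high cells, against 6.58 and 17.04 FPKM in knockout Lgr5-low cells. MHC class II genes had a median of 0.50 in knockout and 0.46 in WT, with 2 of 7 apart and Lgr5-high above, beside 26.5% of all genes. Its knockout median was -0.19 without the first Lgr5-low library and 1.19 without the second. Among 20 targets of p53, 4 stood apart with Lgr5-high above and 6 with Lgr5-high below, beside 26.5% and 17.3% of all genes. Their median was -0.10 in knockout, 0.13 without the first Lgr5-high library and -0.30 without the second. Cdkn1a, which encodes the cell cycle inhibitor p21, stood at 23.6 and 40.1 FPKM in knockout Lgr5-high cells and 54.5 and 79.9 FPKM in knockout Lgr5-low cells, against 10.1 and 10.7 FPKM in WT Lgr5-high cells and 25.9 and 28.3 FPKM in WT Lgr5-low cells. Its gate difference was -1.08 in knockout and -1.30 in WT. The immediate early list had a median of 0.01, with 3 of 19 apart (Klf6, Klf4 and Btg2), all with Lgr5-high below, a share near the 17.3% of all genes. Its sign changed in 11 of 25 other settings. Genes of the m6A machinery had a median of -0.05 in knockout and 0.33 in WT, with Mettl14 apart and Lgr5-high above, Cbll1 apart and Lgr5-high below, and the other 14 of 16 overlapping. In WT 13 of the 16 stood apart with Lgr5-high above, beside 40.6% of all genes. The first knockout Lgr5-high library lay below both knockout Lgr5-low libraries for 11 of the 16, beside 5803 of 12080 genes. The m6A median changed sign in 7 of 25 other settings, and was 0.20 without the first Lgr5-high library and -0.31 without the second. Of immune markers 4 of 16 and of stromal, endothelial and erythroid markers 2 of 16 reached the level for testing, with knockout medians of -0.45 and -0.33 that were both 0.13 without the first Lgr5-high library, and Ptprc, Cd3e and Pecam1 were below 1 FPKM in all 4 libraries and Myh11 was listed at 0. The 4 tested immune markers had a mean log2 level of 1.60 and 2.26 in knockout Lgr5-high cells and 1.54 and 2.88 in knockout Lgr5-low cells, and their part in the gate differences was not tested.

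Across all 12080 genes the gate differences in knockout and WT correlated at r = 0.672 and Spearman's rho = 0.563, and at 0.730 and 0.645 with the length trend out. Genes are not independent replicates, and all libraries entered the same fit. Of the 17 genes that rose in knockout Lgr5-high cells, 14 also passed in WT after the same correction (82.4% of the 17 and 14.3% of the 98 that passed there), and of the 92 that fell 68 did (73.9% of the 92 and 29.8% of 228). Read the other way, 37 of the 38 genes called higher in WT Lgr5-high had the same sign in knockout and 37 did not overlap between the knockout gates on that side. Of the 116 called lower, 115 had the same sign and 112 did not overlap. The knockout difference was the smaller for 34 of the 38 and 104 of the 116, with a median ratio of knockout to WT difference of 0.625 and 0.744, where genes chosen for large WT differences are given as a description. For the genes that passed in knockout the median ratio was 0.925 on the higher and 1.09 on the lower side, again as a description, since those genes were chosen for large knockout differences.

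A test of the difference between knockout and WT gate differences called 0 of 12080 genes (0%), and 194 had an unadjusted limma p under 0.05 (1.61%), so no gate difference was shown to be flattened or gained. Genes among those of smallest p, or with the most reduced differences of the WT calls, are given here with their values. Btbd6, an adaptor of a ubiquitin ligase, rose by 1.33 in the knockout (limma adjusted p = 0.0339), at 9.93 and 6.73 FPKM in knockout Lgr5-high cells and 2.71 and 1.99 FPKM in knockout Lgr5-low cells, against 2.45 and 2.48 FPKM in WT Lgr5-high cells and 1.95 and 1.95 FPKM in WT Lgr5-low cells. The first 2 values stand above all 6 others, and the test of the difference gave a limma p of 0.00375 unadjusted and 0.957 adjusted. Rbm38, an RNA-binding protein, stood at 6.73 and 6.38 FPKM in knockout Lgr5-high cells and 10.8 and 6.04 FPKM in knockout Lgr5-low cells, against 16.0 and 14.4 FPKM in WT Lgr5-high cells and 5.53 and 3.28 FPKM in WT Lgr5-low cells. Its gate difference was 1.62 in WT (limma adjusted p = 0.0397) and -0.27 in knockout (adjusted p = 0.615). Iffo2, an intermediate filament family member, stood at 4.45 and 4.63 FPKM in knockout Lgr5-high cells and 4.05 and 3.04 FPKM in knockout Lgr5-low cells, against 6.32 and 9.67 FPKM in WT Lgr5-high cells and 2.103 and 2.67 FPKM in WT Lgr5-low cells. Gde1, a glycerophosphodiester phosphodiesterase, differed by -2.03 in WT and by -0.85 in knockout. Rpl29, a ribosomal protein gene with near-identical copies, fell by 3.74 in the knockout (limma adjusted p = 0.0483), at 25.9 and 19.2 FPKM in knockout Lgr5-high cells and 324 and 213 FPKM in knockout Lgr5-low cells. It stood at 329 and 74.1 FPKM in WT Lgr5-high cells and 165 and 78.5 FPKM in WT Lgr5-low cells, and is uncertain because the split between copies can shift from library to library.

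At day 3 of the knockout, with a single library per gate and therefore no test, the medians were 1.21 for stem cell markers, 0.96 for Wnt targets, -1.40 for enteroendocrine genes, -0.11 for tuft markers, -1.52 for goblet markers and -2.56 for hydrolases. Bex1 differed by 1.48, Ascl2 by 1.38, Igfbp4 by 1.59, Mall by -1.93 and Slc26a6 by -1.95 at day 3. Zg16 differed by -2.995 and Sst by -2.38 at day 3, against -1.58 and -0.62 at day 4.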

How the data were processed

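Libraries from sorted crypt cells were deposited as FPKM per gene in 1 table per sample, which the authors made with HISAT2 2.1.0 and StringTie 1.3.3b on mm10, per the submitters' processing notes. Whether strand was used is not stated, so overlapping and antisense genes cannot be told apart. Gene names and exon lengths came from GENCODE M21 (54723 IDs matched, 115 did not). Depth, estimated from the steps of low FPKM values over 10050 genes, was 14800000 to 25700000 fragments and covers counting error only.

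Genes at 1 FPKM or more in at least 2 of the 4 day 4 knockout gate libraries were tested on log2(FPKM + 1) with limma 3.58.1 in R 4.3.3, with the 10 tissue libraries of groups of 2 in 1 fit (5 residual degrees of freedom) and Benjamini-Hochberg adjustment at 0.05. The fit was repeated with a lowess trend (span 0.3) of each library against log exon length taken out. The pipeline was tested on simulated data. Promoters were from RefSeq (GRCm38.p6).

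The genes, the 23 lists and the tests were chosen with earlier results of these data known. Named genes were taken from the 10 markers and the 12 genes of smallest p in each direction at a mean of 5 FPKM or more. Others came from the 8 largest length-corrected calls in each direction and the 3 of smallest p in each list. Further ones came from the WT calls most and least reduced and the genes of smallest interaction p. Not every gene of these sets is named, and Rpl17, Dhrs11 and Defa25 are among those left out. Other list members named were picked after their values were seen. In all 25 other settings were run.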

Additional observations from a re-analysis of the deposited data

Results flagged for a closer look

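Genes are given here whose gates did not overlap and lay in opposite directions in knockout and WT, where the value is the knockout gate difference minus the WT gate difference on the log2 scale. None passed limma's adjusted threshold for that difference, so the opposite directions are not shown to differ. Sept2 carries 2 overlapping gene IDs on chromosome 1 (93478964 to 93510260 and 93478993 to 93509733), and the values were 4.36 for the first ID (limma adjusted p = 0.884) and -5.76 for the second (limma adjusted p = 0.957). The first ID stood at 10.7 and 14.0 FPKM in knockout Lgr5-high cells and 1.49 and 1.38 FPKM in knockout Lgr5-low cells, and the second at 1.83 and 5.54 FPKM in knockout Lgr5-high cells and 24.8 and 24.9 FPKM in knockout Lgr5-low cells. Reads of a shared locus can be split between these IDs, so both are uncertain. The value was -1.98 for Pcmtd1, 1.81 for the tuft cell gene Ltc4s and -1.07 for the m6A writer subunit Cbll1, with a limma adjusted p of 0.957 for each.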

How the results depend on the processing

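The number of genes called for the knockout gates depended on the libraries and settings. The direction of the 109 length-corrected calls did not change when a knockout library was left out or the first library alone was corrected. Their knockout gates did not overlap, so leaving out a library could hardly reverse them. A block by number leaves each gate difference as it is and cannot test its direction. limma called 0 genes in knockout as reported, and 5 without a filter, 16 with a filter at 5 FPKM, 95 after quantile normalization, 3 after scaling by medians of ratios, 109 with the length trend out and 27 with it out of the first Lgr5-high library alone. Leaving out 1 library gave 0 to 1943 (1 without the first Lgr5-high, 1943 without the second, 44 without the first Lgr5-low and 1 without the second). With the length trend out, leaving out 1 knockout library gave 0 to 2190 calls (525 without the first Lgr5-low library), against 109. For WT, 154 calls became 32 without a filter, 56 with equal FPKM sums, 290 with quantile normalization, 326 with the length trend out, 291 with it out of the first knockout Lgr5-high library alone and 0 to 302 without 1 library. The difference of the gate differences gave 0 calls, and 1 when groups outside the comparison were dropped, 2 with the filter set over all 10 libraries, 7 without a filter and 0 to 1 without 1 library. The cause of these changes was not tested.

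A replicate block, which pairs libraries of the same number, gave 378 calls in knockout and 292 in WT, and 1076 and 686 with the length trend out as well, on 3 residual degrees of freedom. Deviations of same-numbered libraries from their group means correlated at 0.354 in knockout and 0.461 in WT, but with only 2 numbers, of which the labels do not say what they mark, the libraries share only a number.

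The median over all genes stood at 0.04 as reported, 0.17 with the length trend out of the first Lgr5-high library alone and 0.16 without that library. Some genes whose knockout gates overlapped changed sign. Pla2g2a was at -0.16 with the length trend out, with or without the block, at -0.0030 with it out of the first library alone and between -2.75 and 2.98 without 1 library (-2.93 to 2.60 with the length trend out), where the first Lgr5-high library and the second Lgr5-low one gave the negative values (-2.37 and, with the length trend out, -2.62 for the second Lgr5-low). Without 1 library Ephb2 lay between -0.22 and 0.62, Sox4 between -0.067 and 1.05, Mki67 between -0.052 and 0.73, Lyz1 between -0.53 and 0.048 and Rbm38 between -0.64 and 0.10. Mettl3 lay between -0.056 and 0.70 with the length trend out. Each knockout Lgr5-high library was also set alone against both Lgr5-low libraries, a choice made after seeing the data. With 2 libraries per gate, every test here rests on few replicates, and depth was only roughly estimated.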
